A study of Homo sapiens with 12 samples.

Results

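Oxidative phosphorylation is carried out by 5 protein complexes of the inner mitochondrial membrane, and the genes described here are their nuclear-encoded subunits. They were chosen by symbol from the probe annotation of the arrays (NDUFA, NDUFB, NDUFC, NDUFS and NDUFV genes, SDHA to SDHD, UQCR genes and CYC1, COX4 to COX8 genes, and ATP5F, ATP5M and ATP5P genes), with the probe set of highest mean over the 12 arrays standing for each gene. Of 19775 symbols, 76 were such subunits: 32 of complex I, 3 of complex II, 7 of complex III, 17 of complex IV and 17 of complex V. Another 5 symbols fitted the pattern and were left out, as 2 are pseudogenes and 3 are antisense or divergent RNAs. SDHB and UQCRFS1, and genes found only on probe sets shared by several symbols such as NDUFS8 and UQCRH, are not analysed here.

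The cells were HK-2, immortalized from human proximal tubule epithelium, and their transcript levels were read on Affymetrix arrays. HK-2 is a single line and keeps only some features of the tubule. Cells near confluence were given a low dose of Kbr, or its vehicle as control, for 24 h or 48 h, with 3 biological replicates in each of the 4 groups and 1 array per replicate. The sources used here give neither the concentration of Kbr nor what the name stands for, nor is it stated whether replicates came from separate cultures, so p-values measure the spread between these samples. All levels are deposited log2 values, on which a difference of 1 is a doubling, and each change is treated minus control cells of the same time unless time is named.

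Complex I (NADH dehydrogenase) and complex II (succinate dehydrogenase) pass electrons to ubiquinone, complex III passes them on to cytochrome c, and complex IV (cytochrome c oxidase) hands them to oxygen. Complexes I, III and IV pump protons, and complex V (ATP synthase) uses the gradient to make ATP. The proximal tubule of the kidney depends strongly on this route for the energy of its transport work, whereas cultured lines derived from it lean more on glycolysis. Complex II is wholly encoded in the nucleus, and the other 4 also hold subunits encoded in mitochondrial DNA, of which 0 of 13 are named in the annotation used here.

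Array medians lay between 2.91 and 2.99, and 40.0 to 40.4% of probe sets exceeded 4, the floor of the filter. Of 12 proximal tubule markers named on the array, 10 lay below this floor in every group, among them LRP2, CUBN and AQP1, while the kidney lineage factor PAX8 had group means of 10.8 to 11.3. The other proximal tubule marker above the floor was SLC3A1, part of an amino acid transporter, which fell from a mean of 8.48 in controls to 7.14 in treated cells at 24 h (limma adjusted p = 0.021) and from 9.43 to 7.52 at 48 h (adjusted p = 0.000395). All 7 epithelial markers were above the floor, 3 of 8 fibroblast markers were (COL1A1, DCN and LUM), and 0 of 6 endothelial and 0 of 5 leukocyte markers were. On the linear scale, the summed level of the epithelial markers was 24800 to 30700 in 48 h controls and 19200 to 25600 in 48 h treated cells, and that of the fibroblast markers 5370 to 5650 and 1520 to 2180. At 24 h the epithelial sum was 27300 to 32800 in controls and 21500 to 25700 in treated cells, and the fibroblast sum 5690 to 8110 and 3660 to 5090. Only the epithelial sums at 48 h overlapped between treated and control arrays. As a sign of RNA quality, the log2 gap between 3′ and 5′ ACTB probe sets was taken, and it was wider in treated cells by 0.121, -0.017 and 0.074 in the 3 replicate pairs at 24 h and by 0.166, 0.030 and 0.082 at 48 h. The part of these shifts in the results below was not tested, and in bulk samples fewer cells of a type and less RNA per cell cannot be told apart.

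At 48 h, 22 of 71 subunit transcripts fell under Kbr (31.0%, against 20.8% of all genes tested) and 2 rose (2.82%, against 22.0%). Each of the 5 complexes had at least 1 that fell: 31.2% of complex I, 33.3% of II, 28.6% of III, 38.5% of IV and 25.0% of V. Whether these shares differ from that of all genes was not tested. In complex II it was SDHC alone (limma adjusted p = 0.0474), a call that did not hold when most single arrays were omitted. The falls were between 16.7 and 47.0% of the control level, with the largest in NDUFB1, NDUFS7 and NDUFA7 of complex I and ATP5MC2 of complex V. The 2 that rose were NDUFV3 and NDUFA8, both accessory subunits of complex I. At 24 h no subunit passed the test, where 5.74% of all genes did. With the replicate number as a block in the model, 7 were lower at 24 h (9.86%, against 14.0% of all genes). At 48 h 34 were then lower (47.9%, against 28.8%) and 3 higher (4.23%, against 28.7%).

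Of the 76 subunits, 71 passed the filter on low values. The other 5 were ATP5MF, whose probe set was dim, and the tissue-restricted isoforms COX6B2, COX7A1, COX7B2 and COX8C, with means of 2.03 to 2.72 over 12 arrays. All group means of 69 of the 71 were above 8. COX4I2 and COX6A2, both isoforms restricted to certain tissues, were the exceptions.

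At 24 h, 0 of 71 subunits passed limma's test at an adjusted p of 0.05, where 5.74% of the 10665 genes tested did (2.48% higher and 3.25% lower). At an unadjusted p below 0.05 there were 6 of 71, against 23.7% of all genes. Changes lay between -0.39 and 0.14, with a median of -0.07, against -0.02 over all genes. Of the 71 changes 57 were below 0, where 5609 of the 10665 genes were. With the replicate number as a block, 7 passed, all lower, where 14.0% of all genes were called lower: NDUFB1, NDUFS7, NDUFA7, NDUFA10, SDHA, UQCRC2 and ATP5F1D. Without treated 48 h replicate 3 NDUFA7 and NDUFB1 were called (adjusted p = 0.034 and 0.0359), and without treated 48 h replicate 1 NDUFA7 was (0.041). Medians at 24 h were -0.08 in complex I, -0.07 in II, -0.06 in III, -0.05 in IV and -0.06 in V. All 3 treated arrays lay below all 3 controls for 14 subunits and above them for 0, where 15.9% of all genes were on each side.

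At 48 h, 22 of 71 subunits were lower (31.0%) and 2 were higher (2.82%), where 20.8% of all genes were called lower and 22.0% higher, 42.8% together. The median change was -0.18, against -0.00 over all genes. Of the 71 changes 59 were below 0, where 5369 of the 10665 genes were. Groups did not overlap for 33 subunits on the lower side and 3 on the higher side, where 24.9% and 26.0% of all genes did so. With the block, 34 were lower (47.9%) and 3 higher (4.23%), against 28.8% and 28.7% of all genes. Without a single array the count of 24 became 14 (treated 48 h replicate 1), 13 (treated 48 h replicate 2), 13 (control 48 h replicate 1) or 15 (control 48 h replicate 3). Of all genes 36.6%, 34.1%, 34.1% and 38.7% were called in these fits, against 42.8% with all arrays. A fit on the 48 h arrays alone called 12 subunits, where 33.4% of all genes were called. Other probe sets were tested for 9 of the 24 genes, 15 in number, of which 13 changed with the same sign and 9 passed the test over all probe sets.

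**Figure D1:**
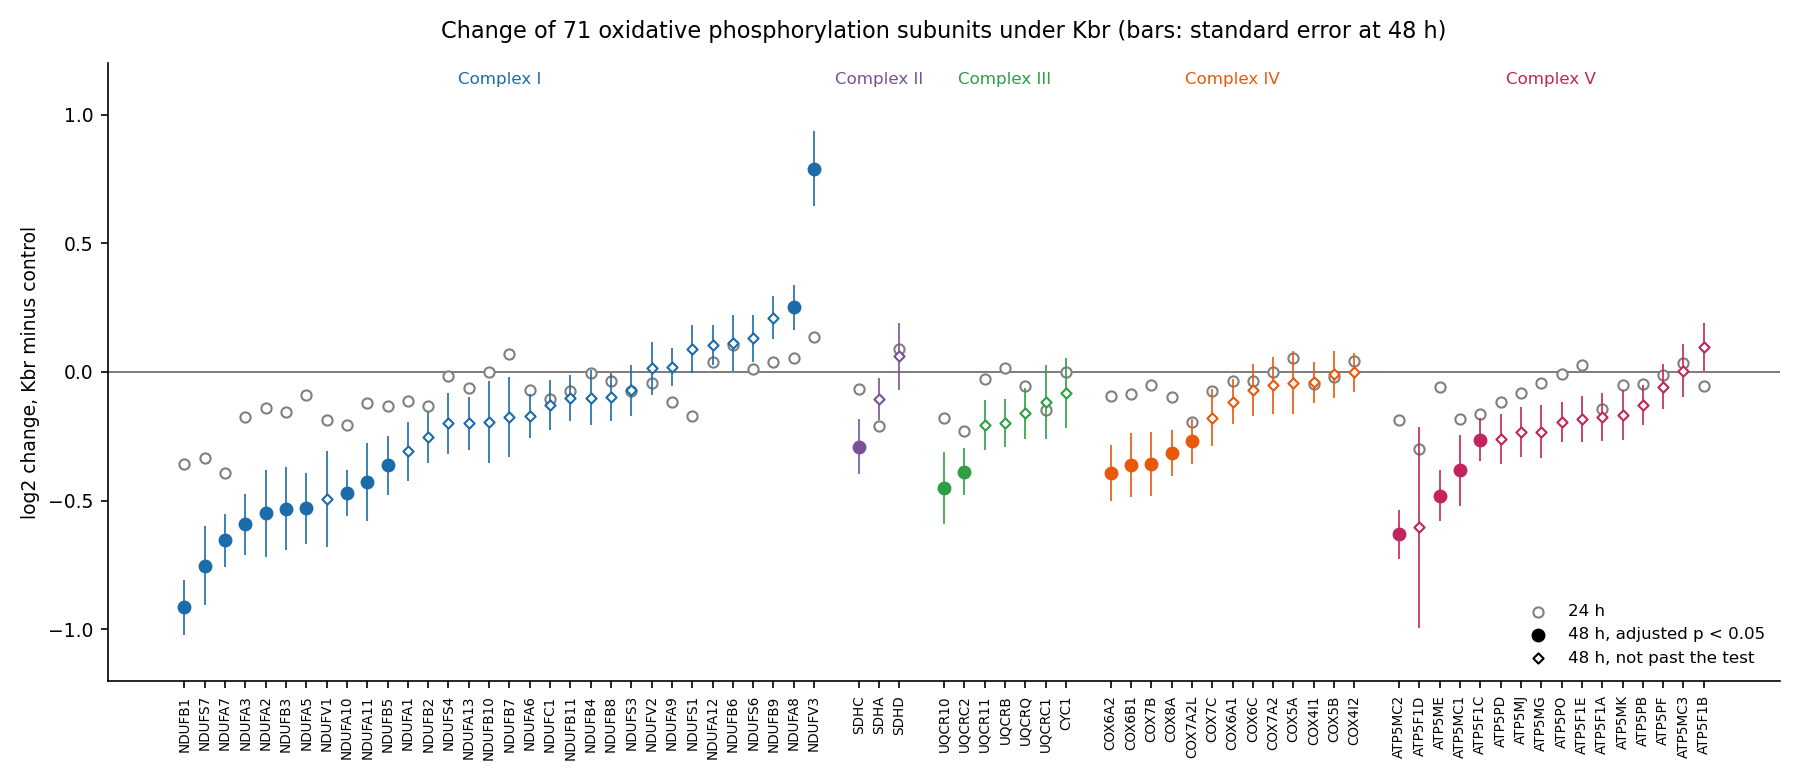
The vertical axis is the log2 change, Kbr minus control, of each of the 71 tested subunits, ordered within complexes I to V by their change at 48 h. Grey circles are 24 h, coloured markers 48 h with the standard error of limma as bars, and filled markers had an adjusted p below 0.05. Filled markers below 0 number 22 and those above 0 number 2, both in complex I, and no 24 h value passed the test.

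The median change was below 0 in each replicate pair. It over the 71 subunits was -0.25, -0.20 and -0.11 in pairs 1, 2 and 3 at 48 h, against -0.09, -0.07 and -0.05 at 24 h. Over all genes the same medians were within 0.0221 of 0. Complex V had medians of -0.31, -0.24 and -0.14 at 48 h, and complex III had -0.28, -0.15 and -0.13. Complex IV ranged from -0.20 in pair 1 to -0.03 in pair 3, so its pair 3 was close to 0. In single pairs at 48 h, 59, 58 and 57 of the 71 subunits were lower, where 5191, 5191 and 5637 of 10665 genes were. In all 3 pairs 52 subunits were lower at 48 h and 8 were higher, a count that was not made over all genes. The medians of all 5 complexes were below 0 at both times also with repeated quantile normalization and with array medians subtracted.

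**Figure D2:**
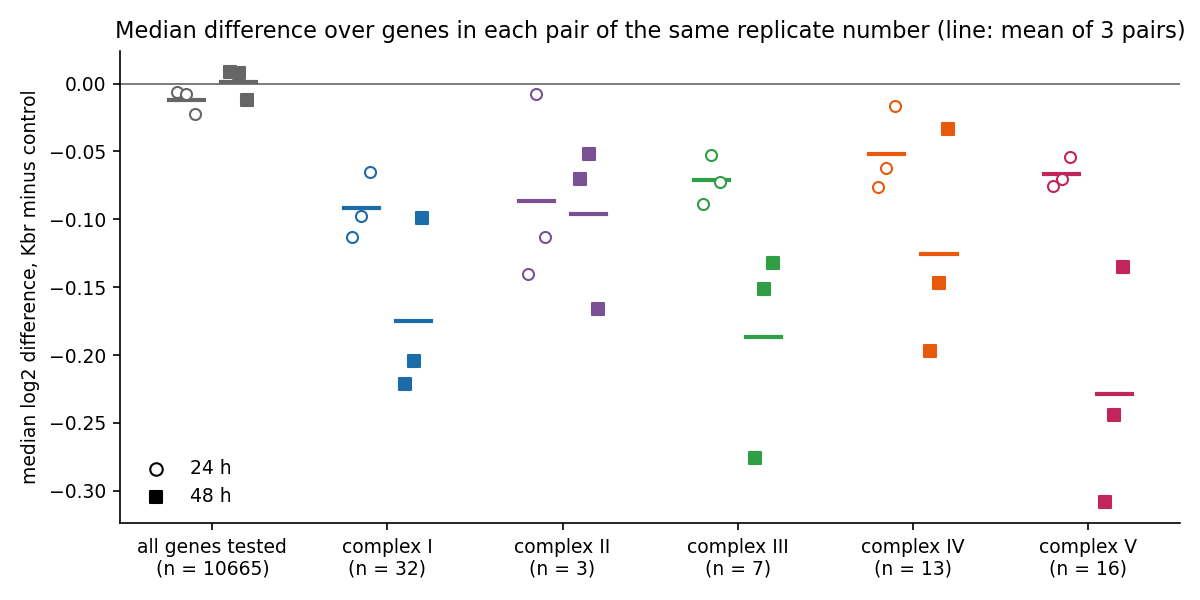
The vertical axis is the median log2 difference, Kbr minus control of the same replicate number, over all genes tested and over the tested subunits of each complex. Circles are the 3 pairs at 24 h, squares the 3 pairs at 48 h and lines their means. Every pair of every complex lies below 0, and the all-gene medians lie within 0.0221 of it.

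In the following, values of 3 arrays are given in the order of replicates 1, 2 and 3. At 48 h complex I had 10 of 32 subunits lower (31.2%, against 20.8% of all genes) and 2 higher (6.25%, against 22.0%). Its median was -0.18 and its range -0.92 to 0.79. Calls in both directions were found here. With the block 15 of its subunits were lower (46.9%, against 28.8% of all genes) and 3 higher (9.38%, against 28.7%).

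NDUFB1, an accessory subunit of the membrane arm, had the largest change of any subunit. It was at 12.75, 12.83 and 12.80 in 48 h controls and at 11.86, 11.67 and 12.10 in treated cells. Its fall was 0.92 ± 0.11 on the log2 scale (SE, n = 3 per group), 1.89-fold, with a limma adjusted p of 0.000165, and the groups did not overlap. At 24 h it was at 12.74, 12.73 and 12.60 in controls and at 12.39, 12.31 and 12.30 in treated cells, again without overlap, with an adjusted p of 0.0747 that became 0.0371 with the block. A much dimmer probe set for this gene, with a mean of 4.43, changed by 0.01.

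NDUFA7, which sits on the matrix arm, was at 10.26, 10.29 and 10.45 in 48 h controls and at 9.51, 9.67 and 9.85 in treated cells. All treated arrays were below all controls, and the change was -0.65 ± 0.10 (SE; limma adjusted p = 0.000727). It had the most negative change at 24 h of the 71 subunits, -0.39, where the values of 9.86, 9.93 and 9.99 also lay below the controls at 10.32, 10.41 and 10.24 (adjusted p = 0.0524, and 0.0133 with the block). NDUFA10, an accessory subunit of the membrane arm, was at 11.61, 11.45 and 11.40 in 48 h controls and at 11.07, 10.99 and 10.98 in treated cells. Its change was -0.47 ± 0.09 (adjusted p = 0.00185) with no overlap, and averaging it with 4 probe sets below the floor left -0.06 and ended the call (adjusted p = 0.449).

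Of the 5 core subunits, which carry the electron path in the matrix arm, only NDUFS7 passed the test. This subunit holds the last iron-sulfur cluster before ubiquinone, and it is named here after its values were seen, as are the genes of the next sentences. Its levels were 9.73, 9.10 and 9.50 in 48 h controls and 8.80, 8.55 and 8.71 in treated cells. The change was -0.75 ± 0.15, or 1.69-fold lower (adjusted p = 0.00289), and replicate 2 was the lowest array in both groups. The other 4 were NDUFV1 at -0.49 (adjusted p = 0.0526, and 0.000436 with the block), and NDUFS1, NDUFS3 and NDUFV2 between -0.07 and 0.09.

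Among the 8 accessory subunits of the matrix arm, NDUFA7, NDUFA2 and NDUFA5 were lower, the latter 2 by 0.55 and 0.53 on the log2 scale. Of 18 in the membrane arm 6 were lower: NDUFB1, NDUFA10, NDUFA3 (-0.59), NDUFB3 (-0.53), NDUFA11 (-0.43) and NDUFB5 (-0.36). The calls of NDUFA3 and NDUFA5 were kept in all 12 fits that left out 1 array. Those of NDUFA2 and NDUFB3 were lost without treated 48 h replicate 1 or 2 or control 48 h replicate 3, and also without control 48 h replicate 1 (NDUFA2, up to 0.0704) or 2 (NDUFB3, up to 0.065). NDUFB5 was lost without treated 48 h replicate 2 or 3 or control 48 h replicate 1 or 2, with an adjusted p of up to 0.0725. The call of NDUFA11 was kept without treated 24 h replicate 3, treated 48 h replicate 3 or control 48 h replicate 2. It was lost without any other array (up to 0.15). A further probe set of NDUFA11 changed by -0.47 (limma adjusted p = 0.0211 over all probe sets tested).

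NDUFV3, a small accessory subunit at the NADH-binding tip of the matrix arm, rose. It was at 8.16, 7.82 and 8.33 in 48 h controls and at 8.93, 8.92 and 8.82 in treated cells. All treated arrays were above all controls, by 0.79 ± 0.15 on the log2 scale, 1.73-fold (limma adjusted p = 0.00163). At 24 h its controls (8.48, 8.15 and 8.46) and treated cells (8.66, 8.33 and 8.50) overlapped, with a change of 0.14. A further probe set of the gene changed by 0.42 at 48 h (adjusted p = 0.0187 over all probe sets tested).

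NDUFA8, an accessory subunit of the membrane arm, went from 11.02, 11.12 and 11.03 in 48 h controls to 11.25, 11.35 and 11.34 in treated cells. The change of 0.25 ± 0.09 had an adjusted p of 0.0392, with no overlap. This call was lost with repeated quantile normalization (adjusted p = 0.0775) and with array medians subtracted (0.129). It was also lost without control 24 h replicate 1, treated 24 h replicate 3, treated 48 h replicate 2 or 3 or any 1 of the 48 h controls (up to 0.105). NDUFB9, also of the membrane arm, was at 13.05, 12.94 and 13.15 in 48 h controls and at 13.27, 13.18 and 13.33 in treated cells, where its 3 arrays were the higher ones. Its adjusted p was 0.0598, and 0.0164 with the block.

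**Figure D3:**
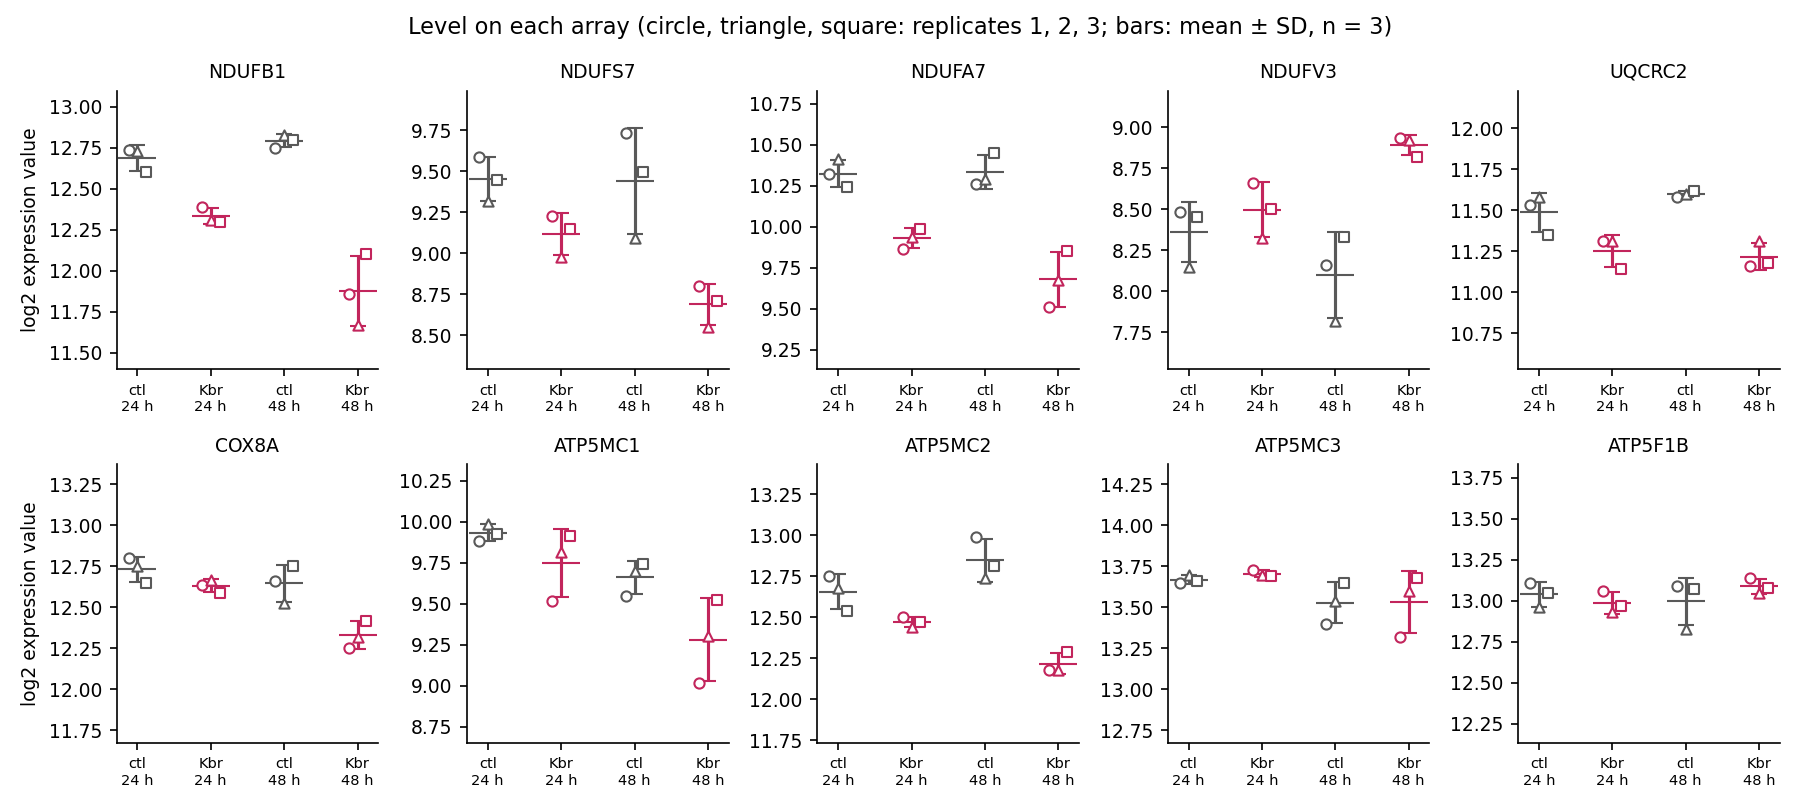
Each panel shows the log2 level of 1 gene on the 12 arrays in the groups 24 h control, 24 h Kbr, 48 h control and 48 h Kbr, with its own vertical axis. Circle, triangle and square are replicates 1, 2 and 3, and bars are mean ± SD (n = 3). At 48 h treated arrays lie below all controls for NDUFB1, NDUFS7, NDUFA7, UQCRC2, COX8A, ATP5MC1 and ATP5MC2 and above them for NDUFV3, and they overlap for ATP5MC3 and ATP5F1B.

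Complex II had 1 of 3 subunits lower at 48 h (33.3%, against 20.8% of all genes) and none higher, where 22.0% of all genes were. SDHC, a membrane anchor, was at 11.26, 11.48 and 11.39 in 48 h controls and at 10.92, 11.11 and 11.23 in treated cells. The change was -0.29 ± 0.11 (limma adjusted p = 0.0474), and the call was lost with array medians subtracted (0.0601). It was kept without treated 48 h replicate 3 or control 48 h replicate 1 and lost without any other array (adjusted p up to 0.16). SDHA, the flavoprotein that oxidizes succinate, was lower at 24 h, at 10.84, 11.01 and 10.88 against 11.08, 11.21 and 11.07, a change of -0.21 that passed only with the block (adjusted p = 0.156, and 0.0455 with the block). At 48 h SDHA changed by -0.105 (10.94, 10.95 and 10.98 in controls and 10.87, 10.90 and 10.79 in treated cells). The other membrane anchor, SDHD, overlapped between groups at 48 h, with a change of 0.06 (11.57, 11.90 and 11.91 in controls and 11.78, 11.91 and 11.86 in treated cells).

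In complex III all 7 changes at 48 h were below 0, from -0.45 to -0.08, with the probe sets used. Of these, 2 passed the test (28.6%, against 20.8% of all genes called lower). A further probe set of UQCR11, with a mean of 7.64, changed by 0.47 (limma adjusted p = 0.0259 over all probe sets tested), against -0.21 for the one used. The other further probe sets tested in this complex changed by between -0.73 and -0.03. UQCRC2, a core protein on the matrix side, was at 11.58, 11.60 and 11.62 in 48 h controls and at 11.16, 11.31 and 11.18 in treated cells. This was a fall of 0.39 ± 0.09 (limma adjusted p = 0.0064) with no overlap, and a further probe set fell by 0.37. At 24 h it was lower by 0.23, with an adjusted p of 0.158 that became 0.0462 with the block. UQCR10, a small membrane subunit, was at 12.66, 12.66 and 12.72 in 48 h controls and at 11.92, 12.17 and 12.59 in treated cells, where the 3 arrays spread widely. Its change was -0.45 ± 0.14 (adjusted p = 0.0243). The call was lost without treated 48 h replicate 1 or 2 or any 1 of the 3 controls of that time (largest adjusted p 0.0818). A further probe set of UQCR10, with a mean of 6.58, changed by -0.73 (adjusted p = 0.0153 over all probe sets tested).

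UQCRB, which binds ubiquinone, was at 13.89, 13.89 and 13.82 in 48 h controls and at 13.55, 13.74 and 13.70 in treated cells. The groups did not overlap, and the change of -0.20 passed only with the block (adjusted p = 0.106, and 0.0432 with the block). CYC1, the cytochrome c1 heme protein, showed a change of -0.08 and overlapped, at 11.81, 11.40 and 11.73 in controls and at 11.70, 11.39 and 11.61 in treated cells. In both groups replicate 2 was the lowest.

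Complex IV had 5 of 13 tested subunits lower at 48 h (38.5%, against 20.8% of all genes) and none higher, where 22.0% of all genes were. Its median was -0.11 and its range -0.39 to -0.00. COX8A, a small membrane subunit, was at 12.66, 12.53 and 12.75 in controls and at 12.25, 12.32 and 12.42 in treated cells. It fell by 0.31 ± 0.09 (limma adjusted p = 0.0153) with no overlap, a call lost without treated 48 h replicate 1 or control 48 h replicate 3 (up to 0.0552). COX7A2L, which helps join complexes III and IV into supercomplexes, was at 11.60, 11.48 and 11.46 in controls and at 11.29, 11.31 and 11.14 in treated cells. The change was -0.27 ± 0.09 (adjusted p = 0.0265), a call lost without treated 48 h replicate 3 or control 48 h replicate 1 (up to 0.0859).

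COX6A2, the isoform of heart and skeletal muscle, was dim, at 5.53, 5.30 and 5.42 in 48 h controls and 4.91, 4.98 and 5.18 in treated cells. At such levels the change of -0.39 ± 0.11 (adjusted p = 0.0144) depends on the background model, and the call was lost without treated or control 48 h replicate 1 (up to 0.0547). The remaining 2 that fell were COX6B1 and COX7B, by 0.36 each. Both calls were lost without treated 48 h replicate 1 or 2 or any 1 of the 3 controls of that time. The adjusted p reached 0.121 for COX6B1 and 0.132 for COX7B, whose call was also lost without treated 24 h replicate 2. A further probe set of COX7B, with a mean of 7.90, changed by -0.65 (limma adjusted p = 0.012 over all probe sets tested).

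The isoforms of subunit 4, which sits at the ATP-sensing site of the enzyme, did not pass the test. COX4I1, the broadly expressed form, was at 13.63, 13.56 and 13.70 in 48 h controls and at 13.65, 13.51 and 13.62 in treated cells, a change of -0.04 ± 0.08. A dim probe set of COX4I1, with a mean of 4.77, rose by 1.06 (adjusted p = 0.00106 over all probe sets tested), and the average over its probe sets was 0.24. COX4I2, the form known from lung and from cells short of oxygen, was at 4.61, 4.63 and 4.63 in controls and at 4.65, 4.59 and 4.62 in treated cells. COX7A1, a muscle isoform, was below the floor, at 2.11 to 2.15 on all 12 arrays. COXFA4, formerly NDUFA4 and now placed in complex IV, lies outside the rule by its present symbol and changed by -0.15 at 48 h (adjusted p = 0.303).

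Complex V had 4 of 16 tested subunits lower at 48 h (25.0%, close to the 20.8% of all genes) and none higher, where 22.0% of all genes were. Its median was -0.21. With the block 10 of 16 were lower (62.5%, against 28.8% of all genes). The 3 genes ATP5MC1, ATP5MC2 and ATP5MC3 encode the same mature c subunit, the part of the rotor ring that carries protons, and they differ in their import sequences.

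ATP5MC2 was at 12.99, 12.74 and 12.81 in 48 h controls and at 12.18, 12.18 and 12.29 in treated cells. It fell by 0.63 ± 0.09, 1.55-fold (limma adjusted p = 0.000518), with no overlap. ATP5MC1 was at 9.55, 9.70 and 9.74 in controls and at 9.02, 9.30 and 9.52 in treated cells, with replicate 1 lowest in both groups. Its change was -0.38 ± 0.14 (adjusted p = 0.0456, and 0.00551 with the block), a call lost with array medians subtracted (0.0576). It was kept without treated 24 h replicate 1 or 3 or treated 48 h replicate 3 and lost without any other array (up to 0.161). ATP5MC3 overlapped, at 13.40, 13.54 and 13.65 in controls and at 13.32, 13.60 and 13.68 in treated cells, a change of 0.01 ± 0.10. Another probe set of ATP5MC3, with a mean of 8.26, fell by 0.76 (adjusted p = 0.00131 over all probe sets tested), so probe sets of this gene disagreed and their average change was -0.26. Whether the 3 changes differ from each other was not tested.

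ATP5ME, a small membrane subunit that helps dimers of the enzyme form, was at 13.09, 13.08 and 12.99 in 48 h controls and at 12.45, 12.50 and 12.77 in treated cells. Its change was -0.48 ± 0.10 (limma adjusted p = 0.00307) with no overlap, and its call was kept in all 12 fits without 1 array. Within the catalytic head and central stalk, ATP5F1C, the rotating gamma subunit, was at 13.06, 13.02 and 12.93 in controls and at 12.68, 12.72 and 12.81 in treated cells. This was a change of -0.26 ± 0.08 (adjusted p = 0.0242), lost without treated or control 48 h replicate 1 or 2 (up to 0.0725). The average over its probe sets gave -0.14 (adjusted p = 0.442), and its dimmest probe set, with a mean of 3.66, changed by 0.16. Its further bright probe sets changed by -0.25 and -0.20 (adjusted p = 0.0616 and 0.0953 over all probe sets tested).

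ATP5F1A, the alpha subunit, was at 14.34, 14.37 and 14.32 in 48 h controls and at 14.16, 14.26 and 14.08 in treated cells. The groups did not overlap, and the change of -0.18 passed only with the block (adjusted p = 0.151, and 0.0331 with the block). ATP5F1B, the catalytic beta subunit, overlapped between groups and changed by 0.10 at 48 h (13.09, 12.83 and 13.07 in controls and 13.14, 13.05 and 13.08 in treated cells). The delta subunit gene ATP5F1D, named after its values were seen, changed by -0.60 ± 0.39 at 48 h, with an adjusted p of 0.235 that became 0.000245 with the block. None of the 4 peripheral stalk genes passed the test, at -0.26 to -0.06, and 2 were lower with the block.

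Promoters of the subunits were searched for motifs of factors known to act on respiratory chain genes: the NRF1 site (GCGCANGCG), the ETS core bound by GABP (CCGGAAG) and a YY1 core (AANATGGC). Both strands of the 300 bases from 250 before to 50 after the annotated start were read, and matches that overlap each other were all counted. RefSeq promoters of build GRCh38.p14 were matched for 64 of the 76 subunits. The windows below come from subunits that fell at 48 h and were chosen for a match near the start, with the match in capitals.
NDUFS7 (NRF1 site, chr19:1383808-1383867, + strand): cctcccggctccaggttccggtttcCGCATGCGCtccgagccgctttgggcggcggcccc
ATP5MC2 (NRF1 site, chr12:53676090-53676149, - strand): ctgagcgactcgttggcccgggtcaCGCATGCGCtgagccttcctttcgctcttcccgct
ATP5ME (NRF1 site, chr4:674320-674379, - strand): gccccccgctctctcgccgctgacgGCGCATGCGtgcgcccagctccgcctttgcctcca
COX6B1 (ETS core, chr19:35648263-35648322, + strand): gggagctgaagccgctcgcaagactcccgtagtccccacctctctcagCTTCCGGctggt

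The NRF1 site was found in 21 of 64 subunit promoters (32.8%), where 16.0% of the promoters of genes tested and 8.05% of all 27305 promoters held it. It was found in 35.0% of the 20 promoters of subunits that fell at 48 h and in 31.7% of the 41 of tested subunits that did not. The ETS core was found in 28.1% of subunit promoters, against 20.6% of those of genes tested and 10.7% of all, and in 15.0% and 36.6% of the subunits that fell and did not. For the YY1 core the shares were 29.7% of subunits, 11.1% of genes tested and 6.82% of all, with 30.0% and 31.7% among subunits that fell and did not. The promoters of NDUFB1 and NDUFV3, the largest fall and rise, held none of these letters in the window. A match is a description of sequence, and binding was not measured.

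The same subunits were also compared over time. From 24 to 48 h, 0 of 71 passed limma's test in controls, where 3.29% of all genes did. At an unadjusted p below 0.05 there were 5 of 71, against 21.4% of all genes. With the block 3 were higher and 5 lower, against 22.5% of all genes called, and without treated 48 h replicate 3 there was 1, COX7A2L, higher at 48 h (adjusted p = 0.0473). In treated cells 2 of 71 fell and 0 rose, where 5.04% of all genes fell and 5.60% rose. These were NDUFB1, by 0.46 on the log2 scale (adjusted p = 0.0264), and ATP5ME, by 0.44 (adjusted p = 0.0211).

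With the block 3 were higher and 17 lower in treated cells over time, where 14.2% of all genes were called higher and 16.4% lower. Without treated 48 h replicate 3 the count without the block was 19, all lower at 48 h but COX7A2L (0.319) and NDUFS1 (0.308). The count was 0 without treated 24 h replicate 2 or 3 or treated 48 h replicate 1 or 2, and 1 without treated 24 h replicate 1. The share of all genes called over time in these fits was not counted. Treated 48 h replicate 3 was also the array nearest its control at that time by the subunit median.

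A change in the Kbr effect from 24 to 48 h was called for 0 of 71 subunits with limma (lowest adjusted p 0.145), where 0.141% of all genes were called. At an unadjusted p below 0.05 there were 6 of 71, against 16.1% of all genes, and with the block there was 1, NDUFV3, against 7.36% of all genes. Without treated 48 h replicate 3 the calls were NDUFB1 (adjusted p = 0.023) and ATP5ME (0.042), both with the larger fall at 48 h. Over all 71 tested subunits the 48 h effect minus the 24 h effect was below 0 for 56 and above 0 for 15. Over all 10665 genes it was below 0 for 5130 and above 0 for 5535. Its median was -0.12 over subunits and 0.01 over all genes. The 24 h and 48 h effects use separate control arrays.

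Genes around the complexes were counted from lists of assembly factors, electron carriers and other pathways. Of 20 assembly factors of complexes I and II, 7 rose at 48 h (35.0%, against 22.0% of all genes) and 0 fell, with a median change of 0.27, whereas the subunits had a median of -0.18. NDUFAF5, which modifies NDUFS7, rose by 0.87 ± 0.09 (limma adjusted p = 0.000117). TMEM126A, needed to build the membrane arm, rose by 0.69 (0.000532), and NDUFAF4, needed for the matrix arm, rose by 0.81 (0.000982). At 24 h 3 of the 20, the same 3 genes, were higher (15.0%, against 2.48% of all genes).

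Of 34 assembly factors of complexes III to V, 10 were higher (29.4%) and 8 lower (23.5%) at 48 h, close to the 22.0% and 20.8% of all genes. SCO1, which delivers copper to complex IV, rose by 0.65 (limma adjusted p = 0.000982). SURF1, an early complex IV assembly factor, fell by 0.79 (0.000988), and HIGD2A, a factor for supercomplexes, fell by 0.70 (0.000684). Of 24 electron carriers, coenzyme Q enzymes and related genes, 4 rose (16.7%) and 5 fell (20.8%), also close to the shares of all genes. HCCS, which attaches heme to cytochrome c, rose by 0.97, and PDSS1, which starts the coenzyme Q tail, by 1.02, while ETFB, part of the flavoprotein that feeds electrons from fat oxidation, fell by 0.73.

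Regulators of mitochondrial biogenesis had 10 of 16 higher (62.5%, against 22.0% of all genes) and 2 lower (12.5%, against 20.8%) at 48 h, with a median of 0.46. TFAM, which packages and transcribes mitochondrial DNA, rose by 0.88 (limma adjusted p = 0.000467). TFB2M, a mitochondrial transcription factor, rose by 0.88 (8.3e-05) and TWNK, the mitochondrial DNA helicase, by 0.90 (0.000802). The 2 that were lower, named after their values were seen, were PPARGC1A and GABPA. PPARGC1A, a coactivator that drives mitochondrial biogenesis, changed by -1.01 (adjusted p = 0.00937), and by -0.92 at 24 h (0.0597). GABPA, the DNA-binding subunit of GABP, whose ETS core was searched for above, changed by -0.41 (adjusted p = 0.0453). The other genes of factors whose motifs were searched went the other way. NRF1 rose by 0.81 (adjusted p = 0.00241), YY1 by 0.45 (0.00186) and GABPB1, the partner of GABPA in GABP, by 0.48 (0.00609). Of 75 mitochondrial ribosomal proteins 27 were higher (36.0%, against 22.0% of all genes) and 5 lower (6.67%, against 20.8%), with a median of 0.17.

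MRPS30, of the mitochondrial ribosome, rose by 0.86 (limma adjusted p = 8.56e-05). Tricarboxylic acid cycle enzymes were 3 higher (17.6%, against 22.0% of all genes) and 6 lower (35.3%, against 20.8%) of 17, with IDH3A at 0.84 and SUCLG2 at -0.77. Glycolytic genes were 2 higher (11.1%) and 1 lower (5.56%) of 18, both below the shares of all genes. The glucose transporter SLC2A1 rose by 1.34 (adjusted p = 0.000147) and PFKP by 0.46, and PFKM fell by 0.41. No test of one list against another was made.

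**Figure D4:**
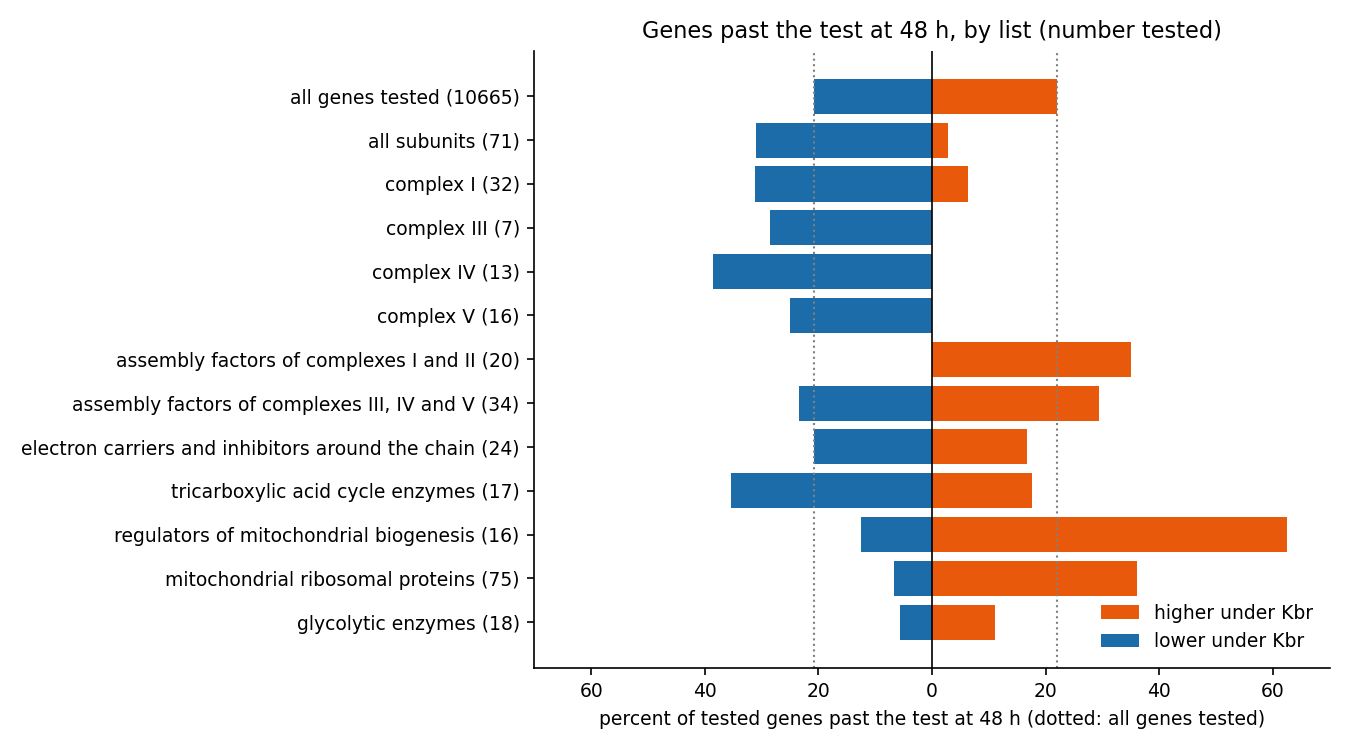
Bars give the percent of tested genes in each list that were lower (blue, to the left) or higher (orange, to the right) under Kbr at 48 h at a limma adjusted p below 0.05, with the number tested in brackets. Dotted lines mark all genes tested, 20.8% lower and 22.0% higher. Subunits lie at 31.0% lower and 2.82% higher, and mitochondrial ribosomal proteins at 6.67% lower and 36.0% higher; complex II, with 3 genes, is not drawn.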

How the data were processed

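Total RNA of HK-2 cells was hybridised to Affymetrix arrays, 1 per sample. The authors deposited log2 expression values of 54675 probe sets, computed with GCRMA, per the submitters' processing notes. Its version, and whether other arrays were normalized with these 12, is not given in the sources used here. GCRMA models background from probe sequence, so values near the floor depend on it. Of the probe sets, 41097 had 1 symbol and 1801 had several. Probe sets with several symbols were not used. For 41 of 76 subunits the probe set ends in _s_at or _x_at and may read related sequences, pseudogenes included.

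Each symbol was represented by its probe set of highest mean, and genes above 4 in at least 3 of 12 arrays were kept. A model of 4 group means was fitted with limma 3.58.1 in R 4.3.3 over 10665 genes, and p-values were adjusted by Benjamini-Hochberg over all of them with a threshold of 0.05. The fit was tested on simulated data of 10665 genes, with 100 changed by 0.5 and 100 by 1 on the log2 scale at 48 h. It called 28 of the former and 70 of the latter, so most changes of 0.5 were missed. The number of arrays limits the precision. Genes given in full were, per complex, the up to 3 with the smallest p in each direction at 48 h, the 2 with the smallest p at 24 h, and a set of genes whatever their values. For lists these were the up to 3 genes with the smallest p. The members, lists and this rule were chosen with earlier results of these data known.

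Replicate numbers come from the labels. Deviations from group means correlated at 0.279 to 0.701 in the 18 pairs of the same number and at -0.454 to -0.0613 in the 36 other pairs, and each of the 12 arrays correlated best with an array of its own number. The rule required every pair to be over 0.1, so values with the number as a block are given where they change a call. Alternatives were this block, no filter, a floor of 6, repeated quantile normalization, subtracted array medians, averaged probe sets, plain _at probe sets, an intensity trend with robust variance, only the groups compared, and each array left out.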

Additional observations from a re-analysis of the deposited data

Results flagged for a closer look

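For ATP5F1B, the catalytic beta subunit of ATP synthase, the treated array lay below its control in all 3 replicate pairs at 24 h, by 0.06, 0.03 and 0.08 on the log2 scale, and above it in all 3 at 48 h, by 0.05, 0.23 and 0.01. The 48 h effect minus the 24 h effect was 0.152. It was singled out by these opposite signs, which are no test in themselves. In limma's test of the difference between the times the adjusted p was 0.612, and neither time passed the test. Opposite signs in all pairs of both times were also found in 2 other subunits of the 71 tested, both of complex I. How often they occur among all genes tested was not counted. NDUFA9 differed by -0.14, -0.09 and -0.11 at 24 h and by 0.04, 0.0036 and 0.01 at 48 h, a difference between the effects of 0.133 (adjusted p = 0.569). NDUFB7 differed by 0.10, 0.05 and 0.06 at 24 h and by -0.18, -0.22 and -0.12 at 48 h, a difference of -0.244 (adjusted p = 0.629). Neither passed the test at either time.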

How the results depend on the processing

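With the replicate block the counts of subunits past the test were 7 at 24 h, 37 at 48 h, 1 for the difference between the times, 8 in controls over time and 20 in treated cells over time. Beyond the calls named in the report it changed no other call of a gene given there in full. A fit on only the groups compared gave 12 at 48 h, where 33.4% of all genes were called, and 0 in treated cells over time. No filter gave 2 in controls and 5 in treated cells over time, and a floor of 6 gave 1 at 24 h and 4 in treated cells. The intensity trend gave 2 at 24 h, 1 in controls and 6 in treated cells. Averaging probe sets gave 1 at 24 h, 1 in controls and 4 in treated cells, with medians of -0.0425 (complex I) and -0.0207 (III) at 24 h and -0.107 (I) and -0.115 (III) at 48 h. It reversed ATP5MC3 (-0.263) and COX4I1 (0.239) at 48 h. Plain _at probe sets gave 1 in treated cells, medians of complex III of -0.000195 at 24 h and -0.115 at 48 h, and reversed ATP5F1C (0.158), COX4I1 (1.06) and NDUFB1 (0.00771) at 48 h. Repeated quantile normalization moved the 24 h medians of complexes III and V to -0.0948 and -0.0902, and subtracted array medians that of V to -0.0407.

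Without 1 array, counts ranged from 0 to 2 at 24 h, 13 to 28 at 48 h, 0 to 2 for the difference, 0 to 1 in controls and 0 to 19 in treated cells over time. The share of all genes called ranged from 0.759 to 7.19% at 24 h and from 34.1 to 42.1% at 48 h. It was not counted for the other comparisons. Medians ranged at 24 h from -0.108 to -0.0627 (I), -0.119 to -0.0209 (II), -0.083 to -0.0338 (III), -0.103 to -0.0142 (IV) and -0.091 to -0.0514 (V), and at 48 h from -0.254 to -0.107 (I), -0.127 to -0.0746 (II), -0.245 to -0.169 (III), -0.15 to -0.103 (IV) and -0.281 to -0.163 (V). The cause of these moves was not tested. Of the 24 calls at 48 h, 10 were kept in all 12 such fits, and 24, 18, 23, 23, 21, 21, 17, 12 and 24 were kept with the block, no filter, a floor of 6, quantile normalization, subtracted medians, averaged probe sets, plain _at probe sets, only the groups compared and the trend. An exact test of 3 against 3 arrays cannot go below 0.1.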
